A study of Mus musculus with 6 samples.

Results

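The genes described here encode the interstitial extracellular matrix and the enzymes that build and cut it. They were chosen by symbol: every protein-coding gene named as a collagen chain except Col4a1 and Col4a2, every Mmp, Timp and Lox family gene, and the single genes Fn1, Sparc, Tnc, Thbs1, Fbn1 and Postn. The rule used no measured value and took 79 of the 55401 genes of the count table. These were 42 collagen genes, 22 matrix metalloproteinase (MMP) genes, 4 genes of their inhibitors (TIMPs), 5 lysyl oxidase (LOX) genes and 6 genes of other matrix glycoproteins. RNA had been sequenced from V6.5 mouse embryonic stem cells of 2 genotypes. One group was wild type (WT) and the other Cdh1-/-, in which both copies of the gene for E-cadherin, a cell adhesion protein, are mutated. Each genotype had 3 libraries, labelled A, B and C. How the mutation was made, how many clones were used and whether the libraries came from separate cultures is not given in the sources used here.

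Collagens are secreted as trimers. The fibrillar collagens assemble into the fibres of connective tissue, FACIT collagens lie along the surface of those fibres, and network collagens form sheets. Lysyl oxidases cross-link collagen and elastin, MMPs cut matrix proteins outside the cell or at its surface, and TIMPs block the MMPs. Fibronectin and the fibrillins form fibrils of their own, whereas Sparc, tenascin C, thrombospondin 1 and periostin bind to the matrix and modulate how cells attach to it. Cultured mouse embryonic stem cells make little fibrous collagen, and their matrix is best known for basement membrane proteins and fibronectin.

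Libraries held 18020719 to 23381942 counts assigned to genes. Levels are CPM (counts scaled to a common library size) after TMM scaling of the library sizes. Low counts were even far more often than odd, so a level was treated as not distinguishable from 0 at or under 6 counts, which is 0.262 to 0.332 CPM in a single library and covers counting error only. Cdh1 itself measured 569, 571 and 537 CPM in WT A, B and C and 168, 183 and 166 CPM in knockout A, B and C, so its transcript remained present in the knockout at a lower level in each library. Markers of embryonic stem cells were abundant everywhere, with 9 genes summing to 4786 to 5181 CPM in WT and 5439 to 6519 CPM in knockout. Of these 9 markers 2 rose and 0 fell. Of 12 fibroblast or feeder markers 7 were too low to test, Fap and S100a4 had 0 counts in all libraries, and the list summed to 29.1 to 31.6 CPM in WT and 36.0 to 46.5 CPM in knockout. Its call was Pdgfra, a receptor that the extraembryonic endoderm also carries. Of 9 markers of primitive and parietal endoderm 8 rose, and the list summed to 185, 264 and 247 CPM in WT A, B and C and to 205, 337 and 505 CPM in knockout A, B and C. Of 6 neural markers 3 fell, of 3 tested endothelial markers Pecam1 fell, and of 4 tested mesoderm markers 0 passed by edgeR, DESeq2 or limma-voom, with 1 lower at an unadjusted p under 0.05. The part of such cells in the matrix results was not tested, and in bulk RNA fewer cells of a type and less RNA per cell cannot be told apart. Genes of chromosome 1 lay lower in each knockout library, with a median log2 difference from the WT mean of -0.33 to -0.29, and genes of chromosome 14 higher, by 0.54 to 0.55. Libraries A of both genotypes stood apart in genes of other tissues: a list of 16 liver genes, chosen after their values were seen, summed to 62.5 CPM in WT A and 50.9 CPM in knockout A, against 5.15 to 8.13 CPM in the other 4 libraries, and all 16 were highest in A within both genotypes. Results that touch these libraries or chromosomes carry their values below.

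Promoter sequences of 7 members that passed the test described below are printed first, because the collagen genes among them share start regions with their neighbours. The RefSeq table of promoters (GRCm38.p6) held 59 of the 79 members and 10 of the 18 that passed the test, and those with at least 60 bases free of annotated exons are shown. Each stretch is at most 180 bases and ends at the base before the first annotated exon. It is written 5′ to 3′ on the strand of the gene, in lower case, with capitals for the TATA, CCAAT and GC boxes found on either strand, whose letters are spelled out after the sequences. The first 3 genes rose in the knockout and the other 4 fell.
Mmp14, + strand, chr14:54431418-54431597: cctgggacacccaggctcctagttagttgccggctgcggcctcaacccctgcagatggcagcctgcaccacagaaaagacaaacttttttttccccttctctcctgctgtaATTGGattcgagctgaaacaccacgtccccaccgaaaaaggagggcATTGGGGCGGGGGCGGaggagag
Mmp11, - strand, chr10:75932503-75932682: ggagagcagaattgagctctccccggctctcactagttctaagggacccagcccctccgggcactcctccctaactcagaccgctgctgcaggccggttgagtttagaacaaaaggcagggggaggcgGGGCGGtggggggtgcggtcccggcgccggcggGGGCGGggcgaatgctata
Timp1, + strand, chrX:20869986-20870165: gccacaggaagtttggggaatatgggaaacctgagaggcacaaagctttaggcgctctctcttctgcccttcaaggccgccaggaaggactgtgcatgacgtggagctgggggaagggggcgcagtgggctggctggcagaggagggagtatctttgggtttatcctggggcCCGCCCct
Tnc, - strand, chr4:64047016-64047195: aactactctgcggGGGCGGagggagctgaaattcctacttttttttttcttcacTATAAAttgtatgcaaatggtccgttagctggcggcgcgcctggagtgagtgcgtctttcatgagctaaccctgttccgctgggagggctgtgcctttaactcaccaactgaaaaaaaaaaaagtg
Col4a6, - strand, chrX:141474077-141474256: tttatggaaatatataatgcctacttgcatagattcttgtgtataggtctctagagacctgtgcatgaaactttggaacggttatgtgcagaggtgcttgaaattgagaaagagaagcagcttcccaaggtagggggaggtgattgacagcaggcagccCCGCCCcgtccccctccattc
Col4a5, + strand, chrX:141475205-141475384: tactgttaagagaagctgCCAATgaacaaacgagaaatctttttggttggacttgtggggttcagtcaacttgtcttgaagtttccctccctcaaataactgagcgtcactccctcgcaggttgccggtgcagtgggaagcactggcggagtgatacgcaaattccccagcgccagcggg
Col4a4, - strand, chr1:82586850-82586920: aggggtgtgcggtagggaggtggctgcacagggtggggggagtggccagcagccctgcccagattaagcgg

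Over the 250 bases before each RefSeq start, searched on both strands, the GC box GGGCGG stood in 50.7% of the 67 windows of members and in 32.7% of all 32851 windows. Among members that passed the test it stood in 5 of the 6 higher genes with a window (Fbn1, Mmp11, Mmp14, Timp1 and Timp2) and in 3 of the 4 lower ones (Col4a5, Col4a6 and Tnc). The CCAAT box stood in 25.4% of member windows and 33.9% of all windows. The TATA box TATAAA stood in 22.4% and 12.4%. The AP-1 letters TGANTCA stood in 11.9% of member windows and 6.75% of all, and the TCF/LEF letters CTTTGAT in 2.99% and 3.21%. Neither of the last pair was found in the windows of the 10 changed genes. Matches are descriptions of these letters only. The starts of Col4a4 and Col4a3 lie 126 bases apart on opposite strands, and those of Col4a6 and Col4a5 lie 1308 bases apart.

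Across the gene group, calls differed between families. Collagen genes that passed the test were all lower in the knockout, although the direction of Col4a4, Col4a6 and Col12a1 follows from the count filter. The inhibitors Timp1 and Timp2 and 3 MMP genes were higher, Mmp9 was lower, and the matrix glycoproteins moved in both directions. Counts were sufficient to test 55 of the 79 members. With edgeR's quasi-likelihood test at a Benjamini-Hochberg adjusted p under 0.05 over all genes, 8 members rose and 10 fell. That was 32.7% of the tested members, against 13.3% of all 17325 tested genes. Higher calls made up 14.5% of the tested members against 7.6% of all genes, and lower calls 18.2% against 5.71%. In 30 tested members the 3 values of one genotype did not overlap those of the other, which was so in 30.7% of all tested genes. Tnc, Col4a4, Col4a6 and Col12a1 were tested only because WT libraries held enough counts, so their direction follows from the filter. The count of lower genes gains nothing from them. Of the knockout libraries, only B reached the filter's cutoff of 0.495 CPM for Col12a1, and none did for the other genes named. Chromosomes 1 and 14 held 5 of the called members, Fn1, Col4a4 and Col5a2 among the lower and Mmp14 and Loxl2 among the higher. The other chromosomes held 6 higher and 7 lower of 49 tested members. The median log2 fold change was -0.19 over the tested members and -0.01 over all tested genes. Without both libraries A, an alternative added after seeing the data, 7 members were higher and 10 lower, and 14 of the 18 calls were shared. Without knockout A alone there were 9 higher and 16 lower.

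**Figure D1:**
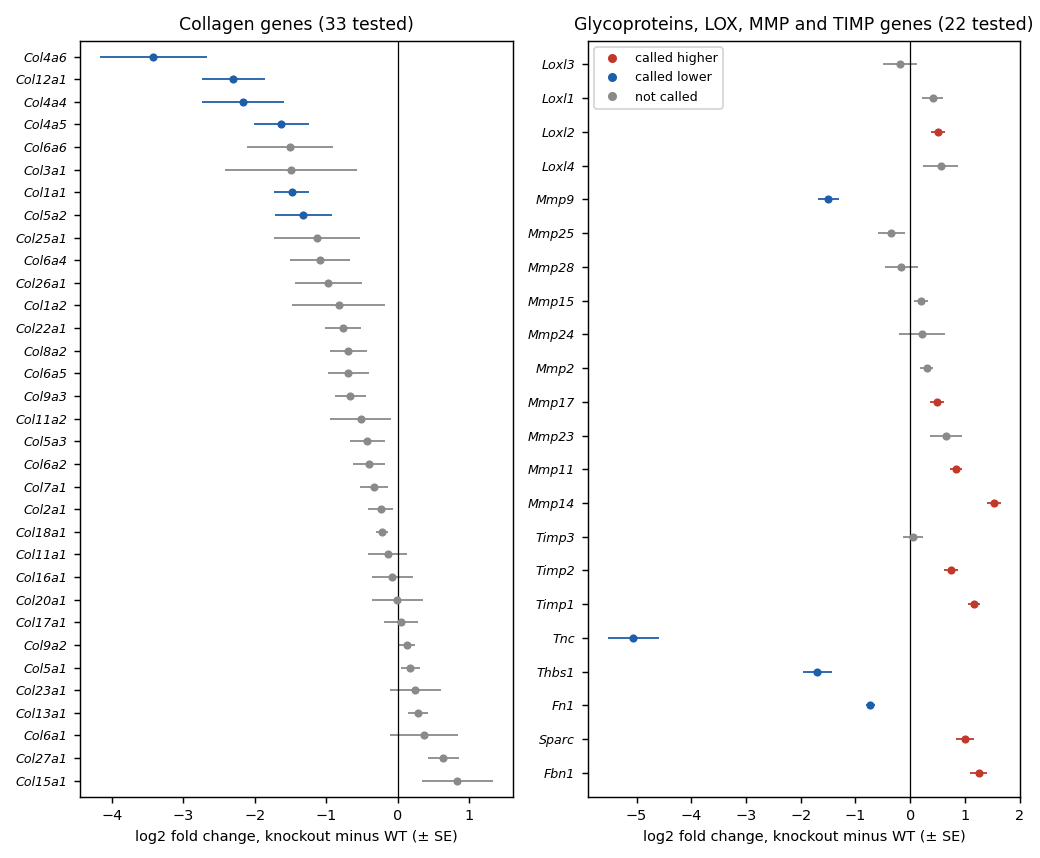
Log2 fold change of knockout over WT with its standard error (x axis) for each tested member (y axis), collagens on the left and the other families on the right; colour shows the call at an adjusted p under 0.05. No collagen was called higher and 6 were called lower; the fits of Tnc, Col4a4 and Col4a6 depend on a prior count because their knockout values lie at or under 6 counts.

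The matrix glycoproteins moved in both directions, and all 5 that could be tested passed, where 13.3% of all tested genes did. The direction of Tnc among the 5 follows from the count filter. Fn1, which encodes fibronectin, was the most abundant member and fell. It measured 1847, 1818 and 1713 CPM in WT A, B and C and 1125, 990.1 and 1123 CPM in the knockout libraries. Every knockout library lay below every WT library. Its log2 fold change was -0.73 ± 0.08 (SE; edgeR adjusted p = 3.92e-05), a ratio of means of 1.66. Fn1 lies on chromosome 1, and with the chromosome medians removed its change was -0.42 (adjusted p = 0.00366). Sparc, a collagen-binding glycoprotein also made in quantity by parietal endoderm, measured 186, 206 and 221 CPM in WT against 297, 376 and 553 in the knockout. All 3 knockout values were above WT, and they spread more widely than WT. Knockout C was highest for Sparc and for the endoderm marker sum, whereas in WT C was highest for Sparc and B for that sum. A link between the Sparc values and that sum was not tested. The log2 fold change was 1.0 ± 0.16 (SE; edgeR adjusted p = 0.000894). As both genes moved, the ratio of Fn1 to Sparc in level per kilobase of exon was 3.18, 2.83 and 2.49 in WT A, B and C and 1.22, 0.844 and 0.651 in the knockout libraries.

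Tnc, the gene of tenascin C, showed the largest difference among the members. It measured 86, 74 and 58 counts in WT A, B and C, or 3.87, 3.74 and 2.90 CPM, and 2 counts in each knockout library. The knockout values lie under the floor, and against the floor Tnc was at least 11.7-fold lower (edgeR adjusted p = 7.84e-06). Tnc was tested only because WT libraries held enough counts, so its direction follows from the filter. Thbs1, the gene of thrombospondin 1, a glycoprotein that binds cells and activates latent TGF-beta, also fell. Its values were 14.3, 18.4 and 13.4 CPM in WT against 5.09, 2.58 and 6.66 in the knockout, again without overlap. The log2 fold change was -1.70 ± 0.27 (SE; edgeR adjusted p = 0.000641). Fbn1 encodes fibrillin 1, the scaffold of microfibrils, and moved the other way. It measured 14.9, 13.5 and 17.3 CPM in WT against 36.4, 29.3 and 43.4 in the knockout, with a log2 fold change of 1.25 ± 0.15 (SE; edgeR adjusted p = 8.05e-05). An unstranded count could not separate it from Gm9913, which lies opposite 20.1% of its exon bases. Postn, the gene of periostin, was too low to test. It had 8 counts in WT A and 10 in knockout A and 0 in the other 4 libraries.

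Collagen genes fell or did not pass the test. Of 33 tested, 6 fell and 0 rose, where 5.71% and 7.6% of all tested genes did. The direction of Col4a4, Col4a6 and Col12a1 among the 6 follows from the count filter. A log2 fold change below 0 was found in 25 of the collagens and in 8846 of all 17325 tested genes. The family median was -0.52. At an unadjusted p under 0.05, 13 were lower and 1 higher, a threshold for which no share over all genes is given here. DESeq2 and limma-voom also called 0 higher and 6 lower. The count depends on library A: without WT A 3 fell and 0 rose, without knockout A 12 fell and 1 rose, and without both libraries A 6 fell and 1 rose. The higher gene was Col27a1, which was not called with all libraries (log2 difference 0.64, edgeR adjusted p = 0.0712). Summed over all 42 genes, collagen transcript per kilobase of exon was 81.1 ± 7.75 (SD, n = 3) in WT and 71.8 ± 2.06 in the knockout. That sum is dominated by Col18a1, a multiplexin whose end fragment is endostatin, which supplied 40.2% to 47.3% of it in single libraries. Col18a1 measured 259, 238 and 250 CPM in WT against 195, 214 and 232 in the knockout. Its groups did not overlap, but the log2 difference of -0.22 ± 0.09 (SE) did not pass the test (edgeR adjusted p = 0.12).

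Among 10 tested fibrillar collagens, Col1a1 and Col5a2 fell, where 5.71% of all tested genes did. Col1a1, the main chain of type I collagen, measured 15.3, 13.3 and 8.90 CPM in WT A, B and C and 5.86, 4.28 and 3.33 CPM in knockout A, B and C. Each knockout value lay below each WT value, and the ratio of means was 2.78. The log2 fold change was -1.48 ± 0.25 (SE; edgeR adjusted p = 0.000912), and -1.54 without both libraries A. Col5a2, a chain of the type V collagen that nucleates type I fibrils, measured 2.61, 2.22 and 1.40 CPM in WT against 0.995, 0.699 and 0.807 in the knockout. Its log2 fold change was -1.32 ± 0.40 (SE; edgeR adjusted p = 0.0415). This call is weak: leaving out 1 library at a time, it held in 2 of 6 fits, and with the chromosome 1 median removed the change was -1.01 (adjusted p = 0.136). Its partner chain gene Col5a1 was measured at a mean of 20.5 CPM in WT against 23.2 in the knockout (adjusted p = 0.444). Col2a1, the cartilage collagen, stood at 12.0 CPM in WT against 10.2 in the knockout (adjusted p = 0.436). These genes are named after their values were seen.

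Col1a2 and Col3a1, whose products assemble with or beside Col1a1, varied more between libraries of one genotype than between genotypes. Col1a2 measured 4.59, 1.82 and 1.10 CPM in WT A, B and C and 3.32, 0.437 and 0.605 CPM in knockout A, B and C. Col3a1 measured 5.13, 0.606 and 1.0 CPM in WT against 2.32, 0.0874 and 0.101 in the knockout. In both genes library A was the highest of its genotype, and knockout A lay above WT B and WT C. Neither passed the test, with log2 differences of -0.82 ± 0.65 (SE; edgeR adjusted p = 0.467) for Col1a2 and -1.49 ± 0.93 (SE; edgeR adjusted p = 0.339) for Col3a1. Without both libraries A the difference was -1.48 for Col1a2 (adjusted p = 0.128) and -3.02 for Col3a1 (adjusted p = 0.0304). Without knockout A alone both passed, and without WT A alone neither did, with log2 differences of -0.032 for Col1a2 (adjusted p = 0.987) and 0.015 for Col3a1 (adjusted p = 0.995). With no count filter Col3a1 passed (adjusted p = 0.0119), and it also passed with the replicate letter as a block (-1.86, adjusted p = 0.0184). The size of both differences thus rests on which libraries A are kept. Col3a1 lies 24614 bases from Col5a2 on chromosome 1.

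Library A of each genotype held more counts of liver genes than the other libraries. Alb, the gene of albumin, had 238 counts in WT A and 162 in knockout A, against 0, 2, 0 and 0 in WT B, WT C, knockout B and knockout C. Among 12 striated muscle genes, likewise chosen after their values were seen, 9 were highest in A of both genotypes. Their sum was 58.2, 37.5 and 31.9 CPM in WT A, B and C. In knockout A, B and C it was 37.4, 42.8 and 37.4 CPM, so the muscle sum did not stand out in knockout A. Of the 61 members with at least 8 counts in WT A, Col1a2, Col3a1 and Postn were the 3 in which A lay more than 2-fold above the higher of B and C in both genotypes, which is 4.92%, against 1.16% of 19076 genes. The part of the RNA behind these liver and muscle counts in the collagen values was not tested. The 14 members that kept their calls without both libraries A were Tnc, Thbs1, Col1a1, Col12a1, Col4a4, Col4a6, Mmp9, Mmp14, Mmp11, Fbn1, Timp1, Timp2, Sparc and Fn1.

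**Figure D2:**
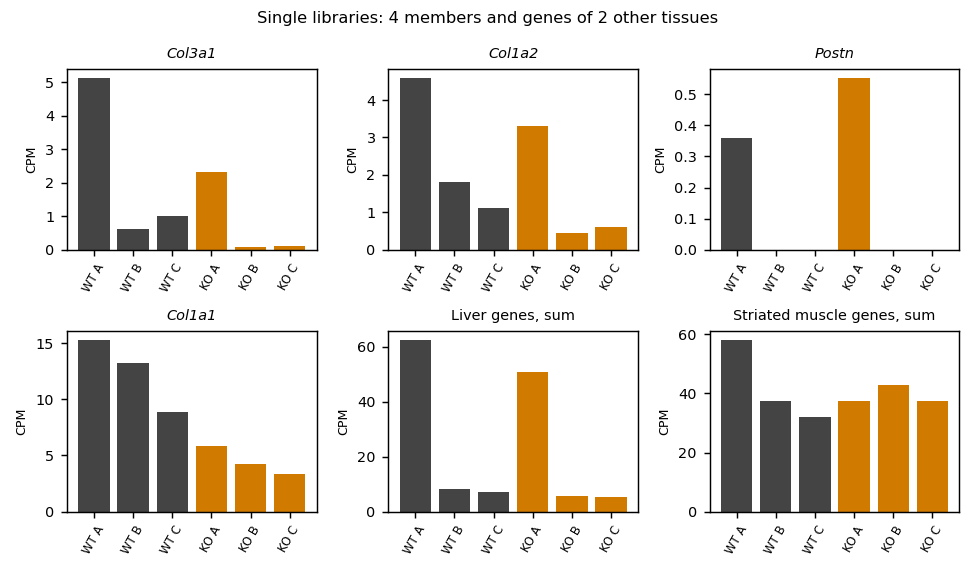
CPM in each of the 6 libraries (x axis) for 4 members and for the summed genes of 2 other tissues (y axes); WT bars are dark and knockout bars orange. Col3a1, Col1a2, Postn and the liver sum are highest in library A of both genotypes, whereas for Col1a1 every knockout library lies below every WT library.

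Among network collagens, 3 of 4 tested genes fell, where 5.71% of all tested genes did. All 3 encode minor chains of type IV collagen. The direction of Col4a4 and Col4a6 follows from the count filter, which leaves Col4a5. These chains, made in specialised basement membranes such as those of kidney and smooth muscle, are encoded by divergent gene pairs. Col4a5 measured 3.33, 3.44 and 2.5 CPM in WT against 0.884, 0.612 and 1.51 in the knockout, with a log2 fold change of -1.63 ± 0.38 (SE; edgeR adjusted p = 0.0103). The groups did not overlap, although the call held in 3 of the 6 fits without 1 library and was lost without both libraries A (adjusted p = 0.0551). Col4a6, its neighbour on the X chromosome, had 20, 14 and 14 counts in WT and 2, 0 and 2 in the knockout. It was at least 2.57-fold lower (edgeR adjusted p = 0.00684). Col4a4, on chromosome 1, had 19, 28 and 18 counts in WT and 6, 6 and 2 in the knockout, at least 3.54-fold lower (edgeR adjusted p = 0.0198). This call held in 1 of the 6 fits without 1 library and was lost with the chromosome 1 median removed (adjusted p = 0.0552). Col4a3, the partner of Col4a4, was too low to test, with 7, 4 and 2 counts in WT and 0 in all knockout libraries. Col8a1, a short-chain network collagen, also missed the count filter. It had 24, 22 and 8 counts in WT and 2, 2 and 0 in the knockout, which is at least 2.89-fold lower, and passed when no filter was applied (edgeR adjusted p = 0.000797) and in DESeq2.

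Of 6 tested FACIT collagens, Col12a1 fell, where 5.71% of all tested genes did. Its direction follows from the count filter, which it passed through its WT libraries. It encodes a fibril-associated collagen of tendon and skin and measured 2.34, 2.73 and 1.5 CPM in WT against 0.332, 0.524 and 0.454 in the knockout. WT values were separated from knockout values, and the ratio of means was 5.02. The log2 fold change was -2.30 ± 0.44 (SE; edgeR adjusted p = 0.00259), and it passed in all 6 fits without 1 library. Col9a2, a chain of type IX collagen, was the second collagen by level per length. It measured 42.9, 34.0 and 40.1 CPM in WT against 41.6, 42.6 and 43.7 in the knockout, values that overlap (log2 difference 0.13 ± 0.11 SE, edgeR adjusted p = 0.506). The beaded-filament genes, which include the 6 tested type VI and related chains, had 0 calls, with 3 lower at an unadjusted p under 0.05. The 4 transmembrane collagens had 0 calls and none at that unadjusted threshold, and their median log2 difference was 0.15.

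**Figure D3:**
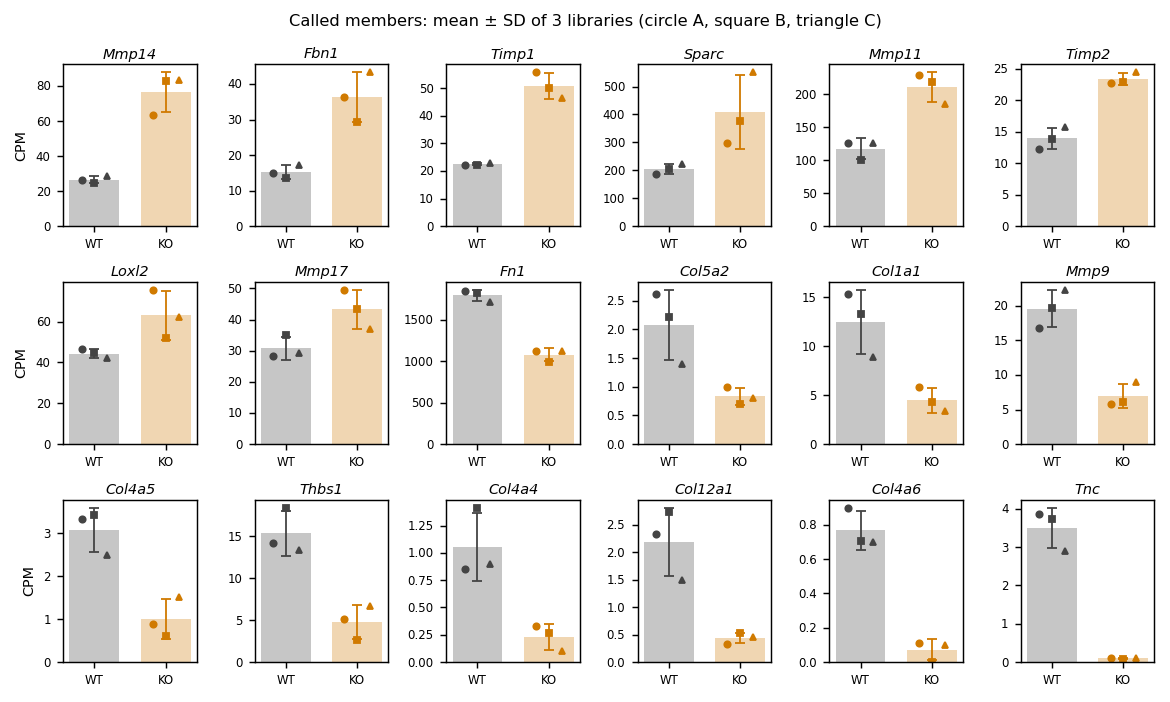
CPM of each library (points; circle A, square B, triangle C) for the 18 called members, with bars at the mean and error bars of 1 SD over 3 libraries; each y axis starts at 0 and has its own scale. In all 18 panels the WT and knockout points do not overlap, which was so in 30.7% of all tested genes. The panels were chosen by the test on these same values, so their separation is not separate evidence.

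Of 10 tested MMP genes 3 rose and 1 fell, where 7.6% and 5.71% of all tested genes did. Mmp14, the membrane-bound MMP that activates the gelatinase Mmp2 at the cell surface, rose most. It measured 26.3, 24.7 and 28.6 CPM in WT A, B and C and 63.3, 83.0 and 83.6 CPM in knockout A, B and C. The lowest knockout library was above the highest WT library by more than 2-fold, and the ratio of means was 2.89. The log2 fold change was 1.53 ± 0.12 (SE; edgeR adjusted p = 2.73e-06). Mmp14 lies on chromosome 14, and with the chromosome median removed its change was 0.99 (adjusted p = 0.000115). Mmp11, a stromelysin processed inside the cell by furin, was the most abundant MMP per length. It measured 126, 99.6 and 126 CPM in WT against 229, 218 and 184 in the knockout, without overlap (log2 fold change 0.84 ± 0.11 SE, edgeR adjusted p = 0.000135). Mmp17, a membrane-anchored MMP, measured 28.2, 35.0 and 29.2 CPM in WT against 49.6, 43.3 and 36.9 in the knockout. Its groups were separated by a narrow gap, its log2 fold change was 0.49 ± 0.13 (SE; edgeR adjusted p = 0.02), and its call held in 3 of the 6 fits without 1 library and was lost without both libraries A (adjusted p = 0.172).

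Of the 2 gelatinase genes, Mmp9, which cuts denatured and basement membrane collagen, fell. It measured 16.8, 19.7 and 22.3 CPM in WT against 5.86, 6.03 and 8.98 in the knockout. Every knockout value was below every WT value, with a log2 fold change of -1.49 ± 0.19 (SE; edgeR adjusted p = 0.000104). Mmp2 measured 27.6, 31.0 and 33.4 CPM in WT against 42.8, 33.5 and 37.1 in the knockout, and its log2 difference of 0.30 ± 0.12 (SE) did not pass (edgeR adjusted p = 0.129). The difference between the 2 responses was not tested. Mmp15, another membrane-type MMP, measured 30.3, 30.4 and 39.9 CPM in WT against 35.3, 38.5 and 42.1 in the knockout, values that overlap (edgeR adjusted p = 0.339). The cluster of 9 MMP members on chromosome 9, from 7272514 to 7699585, which includes the collagenases Mmp13 and Mmp8 and the stromelysins Mmp3 and Mmp10, was almost silent. It held 12 counts in all over the 6 libraries, 5 of the 9 genes had 0, and the highest single value was 4 counts. A change in these genes was not detectable at this depth.

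Of 3 tested inhibitor genes 2 rose, where 7.6% of all tested genes did. Timp1, a secreted inhibitor of most MMPs, had nearly identical WT values of 22.3, 22.2 and 22.9 CPM and measured 55.9, 49.9 and 46.4 CPM in the knockout. All knockout values lay more than 2-fold above all WT values, and the log2 fold change was 1.17 ± 0.11 (SE; edgeR adjusted p = 8.66e-06). Timp2, which both inhibits MMPs and takes part in the activation of Mmp2 by Mmp14, measured 12.3, 13.8 and 15.7 CPM in WT against 22.8, 22.9 and 24.6 in the knockout. Its groups were separated, with a log2 fold change of 0.75 ± 0.13 (SE; edgeR adjusted p = 0.00172). Timp3, the inhibitor that stays bound to the matrix, measured 12.1, 10.5 and 9.90 CPM in WT against 11.2, 8.69 and 13.8 in the knockout. Its values overlap, its log2 difference of 0.05 ± 0.19 (SE) did not pass (edgeR adjusted p = 0.905), and Syn3 lies opposite 21.3% of its exon bases. Timp4 had 5, 3 and 2 counts in WT and 0 in all knockout libraries, and was not tested. Together the TIMP genes summed to 31.4 ± 0.656 CPM per kilobase in WT and 65.8 ± 5.07 in the knockout (SD, n = 3), and the MMP genes to 89.4 ± 8.07 and 144 ± 8.23.

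Lysyl oxidases showed 1 call among 4 tested genes, where 13.3% of all tested genes were called. Loxl2, a family member that also acts on basement membrane collagen, measured 46.4, 44.6 and 42.0 CPM in WT against 75.7, 51.8 and 62.2 in the knockout. The groups did not overlap, with a log2 fold change of 0.51 ± 0.13 (SE; edgeR adjusted p = 0.0136). Loxl2 lies on chromosome 14, and once the chromosome median was removed its difference was -0.03 (adjusted p = 0.91), so a change beyond that of its chromosome was not detected. Loxl1, which acts on elastin, measured 8.55, 5.91 and 8.95 CPM in WT against 9.95, 10.8 and 10.4 in the knockout (log2 difference 0.41 ± 0.19 SE, edgeR adjusted p = 0.182). Loxl4 had a log2 difference of 0.55 (adjusted p = 0.294) and Loxl3 one of -0.19 (adjusted p = 0.758), and both overlap between genotypes. Lox itself was too low to test, with 19, 8 and 9 counts in WT and 4, 2 and 2 in the knockout.

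Of the 24 members that were not tested, 5 had 0 counts everywhere, 15 including those were at or under 6 counts in every library, and 9 were over it in at least 1. They comprised 9 collagens, 12 MMPs, Postn, Lox and Timp4. Their summed counts were lower in the knockout in 17 and higher in 2, Postn and Mmp16. No test stands behind that direction, which includes genes with 1 or 2 counts.

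By level per kilobase of exon, Fn1 led in WT and Sparc in the mean of the knockout libraries. Fn1 stood at 211 CPM per kilobase in WT and 127 in the knockout. Sparc stood at 75.1 in WT and 150 in the knockout. In the knockout libraries Sparc was measured at 109 per kilobase in A beside 133 for Fn1, so the order of this pair was not the same in all 3. Mmp11 followed with 51.3 in WT and 92.0 in the knockout, then Timp1 with 25.3 and 57.1, and Col18a1 with 36.6 and 31.5, so that Col18a1 lay above Timp1 in WT and below it in the knockout. Col9a2, Mmp14, Mmp2, Loxl2 and Mmp15 stood between 6.34 and 18.3 per kilobase in both genotypes. Type I collagen was far lower, with Col1a1 at 2.11 in WT and 0.757 in the knockout, and Tnc stood at 0.451 in WT. The changed collagens thus belong to the low end of this range.

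**Figure D4:**
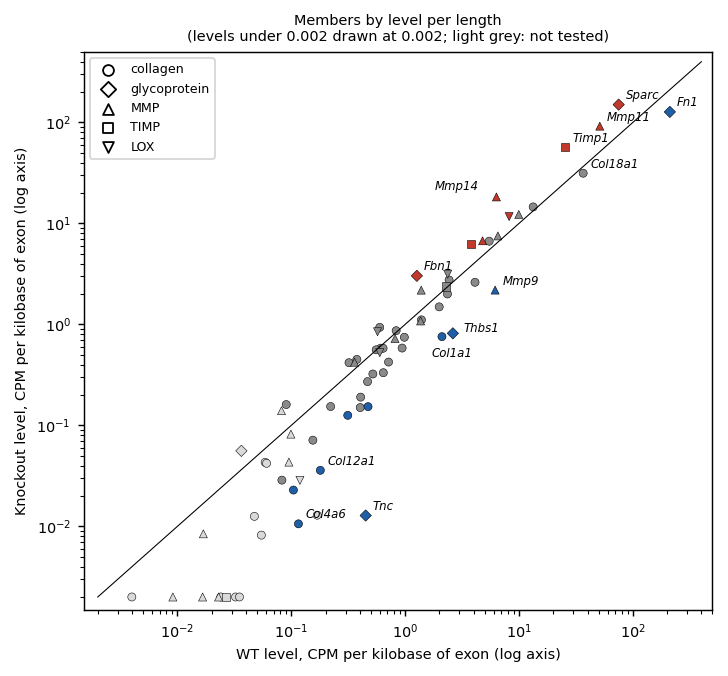
Mean CPM per kilobase of exon in WT (x axis) and knockout (y axis), both on log axes, for members with a count; shapes show the family, red and blue the members called higher and lower, dark grey those tested and not called, and the line equal levels. Fn1, Sparc, Mmp11 and Timp1 lie at the top right, and the called collagens lie below the line at under 3 CPM per kilobase.

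Genes that process collagen did not share the direction of the collagen genes. In a list of 28 enzymes and chaperones of collagen synthesis, 26 were tested, 12 rose and 0 fell, with a median log2 difference of 0.39. None was lower at an unadjusted p under 0.05 or in DESeq2 or limma-voom, and without both libraries A 12 rose and 0 fell. Against a fold of 1.5, 2 rose, without WT A 7 rose, and without knockout A 14 rose and Tll2, a low gene, fell. Over all tested genes 7.6% rose and 5.71% fell. P4hb, the protein disulfide isomerase subunit of prolyl 4-hydroxylase and the most abundant of the list per length, measured 355, 384 and 371 CPM in WT against 512, 479.8 and 479.5 in the knockout (log2 fold change 0.41 ± 0.08 SE, edgeR adjusted p = 0.00291). The largest changes were in genes that trim the ends of procollagen outside the cell. Tll1, a BMP1-like proteinase, measured 2.25, 3.33 and 3.5 CPM in WT against 4.97, 11.6 and 11.3 in the knockout, with a log2 fold change of 1.62 ± 0.31 (SE; edgeR adjusted p = 0.00241). Adamts2, the N-terminal procollagen proteinase, had a log2 fold change of 1.31 ± 0.19 (SE; edgeR adjusted p = 0.000341), and Pcolce, which enhances C-terminal processing, one of 0.70 ± 0.13 (SE; edgeR adjusted p = 0.00249). The hydroxylases P4ha2, Plod1 and Plod2, named after their values were seen, rose by 0.46 to 0.50 on the log2 scale. Serpinh1, the collagen chaperone Hsp47, had a log2 difference of 0.33 (adjusted p = 0.144).

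**Figure D5:**
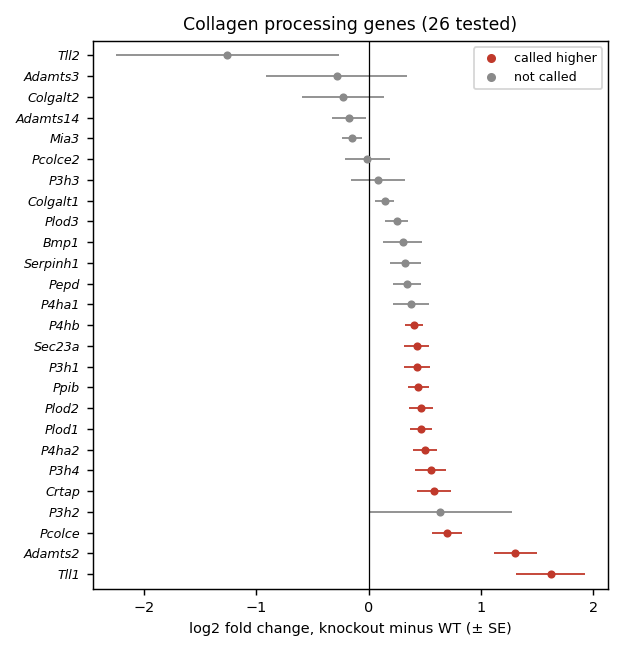
Log2 fold change of knockout over WT with its standard error (x axis) for the 26 tested genes of collagen processing (y axis), coloured by call. The 12 called genes lie between 0.41 and 1.62, all above 0.

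Of 11 tested receptors that bind collagen or fibronectin, 2 rose and 1 fell, where 7.6% and 5.71% of all tested genes did. Itga5, the integrin subunit of the fibronectin receptor, measured 155, 145 and 176 CPM in WT against 231, 244 and 250.2 in the knockout, with a log2 fold change of 0.61 ± 0.09 (SE; edgeR adjusted p = 0.000398). Mrc2, which takes up collagen fragments, had a log2 fold change of 0.85 ± 0.14 (SE; edgeR adjusted p = 0.000902). Ddr2, a receptor kinase for fibrillar collagen that lies on chromosome 1, measured 4.95, 3.23 and 6.90 CPM in WT against 0.553, 1.05 and 2.02 in the knockout, with a log2 fold change of -2.05 ± 0.41 (SE; edgeR adjusted p = 0.00383). In none of these 3 genes did the genotypes overlap. The Ddr2 value given here is not adjusted for the chromosome 1 median, which was -0.33 to -0.29 in the knockout libraries. With the chromosome 1 and 14 medians removed, the receptor list again had 2 higher and 1 lower calls. Itgb1, the integrin beta subunit that pairs with the collagen-binding alpha subunits and the highest of the list per length, had a log2 difference of 0.11 ± 0.09 (SE; edgeR adjusted p = 0.446).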

How the data were processed

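Total RNA was made into directional libraries, per the labels' protocols. The authors deposited raw counts per gene, not normalized. The submitters' processing notes name cutadapt 2.10, STAR 2.7.5b, featureCounts 2.0.1 and build GRCm38. Strand setting and annotation release are not given in the sources used here, so overlaps with opposite-strand genes are stated for Fbn1 and Timp3. Among other named genes, Fdft1 lies opposite 12.8% of the exon bases of Ctsb and Htra2 opposite 11.6% of those of Loxl3. Spp1 shares 18.75% of its exon bases with Gm42793 on the same strand. Symbols and coordinates came from GENCODE M21, which 54349 of 55401 rows matched in identifier and version.

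Counts were fitted in R 4.3.3 with edgeR 4.0.16 (filterByExpr, smallest count 10 and total 15; TMM; glmQLFit and glmQLFTest, genotype only; two-sided), which tested 17325 genes, and adjusted by Benjamini-Hochberg over all of them. The common biological coefficient of variation was 0.137. Standard errors came from the F statistic. P-values measure the spread between these libraries, which may be technical. A lower bound of a fold sets the WT mean against the floor of 6 counts per library.

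Members and lists were chosen with earlier results of these data known. The text names called members, tested members of the 6 single genes and the Timp and Lox families, the 10 highest per length, and per list the 3 largest called changes and the highest gene; others are marked. Alternatives were RLE scaling, library totals, no filter, 50 counts in 3 libraries, DESeq2 1.42.0, limma-voom (limma 3.58.1), a fold of 1.5, adjusted p under 0.01, a replicate block, halved counts, chromosome 1 and 14 medians removed, each library left out and, added later, both libraries A left out. The procedure was tested on simulated data.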

Additional observations from a re-analysis of the deposited data

How the results depend on the processing

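Of 531 recomputed fold changes of named tested members, 483 kept their direction and side of the threshold, 39 lost the call, 5 gained one and 4 changed sign, and 9 of the 18 called members kept their call in every alternative that gave a value. Loxl2 changed sign, to -0.033, once the chromosome 1 and 14 medians were taken out. Timp3, never called, ranged from -0.12 to 0.22 when 1 library was left out and was below 0 without WT C or knockout C. Col3a1 ranged from -4.51 without knockout A to 0.015 without WT A. The cause was not tested. Against a fold of 1.5, 355 of all genes were called instead of 2307, with 3 members higher and 6 lower; at an adjusted p under 0.01, 1242 genes were called. A filter of 50 counts in 3 libraries left 6 lower members, since fewer low genes were tested. Leaving out 1 library gave 1374 to 2784 genes, 6 to 9 higher members and 7 to 16 lower members, the last without knockout replicate A, where Col22a1, Col9a3, Col1a2, Col3a1, Col5a3 and Col8a1 were also called lower and Col27a1 higher. With a replicate block 2686 genes, 8 higher and 13 lower members were called, among them all 18 of the original calls, and Col3a1 was also called (-1.86, adjusted p = 0.0184). Deviations of WT and knockout libraries from the mean of their genotype correlated at 0.16, -0.15 and 0.40 for the same letters A, B and C. For unlike letters they correlated at -0.39 to 0.26. Not every same-lettered pair deviated together, although genes of other tissues were shared by both libraries A. Genes under 50 counts, among them most changed collagens, are the least precise, and the 9 MMP genes of chromosome 9 could not be compared at this depth.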

Other observations

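Other matrix genes were examined in lists chosen with earlier results known. Of 35 tested glycoproteins and elastic fibre genes, 3 rose and 3 fell, where 7.6% and 5.71% of all tested genes did. Leaving out 1 library gave 2 to 4 higher and 1 (without WT B) to 6 (without knockout A) lower. Spp1, the gene of osteopontin, measured 190, 213 and 290 CPM in WT A, B and C and 354, 472 and 590 CPM in knockout A, B and C (log2 fold change 1.03 ± 0.17 SE, edgeR adjusted p = 0.000837). Eln, the gene of elastin, fell by 1.28 on the log2 scale (edgeR adjusted p = 0.0296), and Ccn4, known as a target of Wnt signalling, was at least 4.82-fold lower against the floor of 6 counts (edgeR adjusted p = 0.00408). Ccn4 was tested only because WT libraries held enough counts. Its direction therefore follows from the filter, and the count of lower genes gains nothing from it. Of 12 tested proteoglycan and hyaluronan genes 1 rose and 1 fell, where 7.6% and 5.71% of all tested genes did. Hapln4 rose by 0.77 and the hyaluronan synthase gene Has2 fell by 1.10 (edgeR adjusted p = 0.00493 and 0.0357). Neither of these proteoglycan calls held without both libraries A.

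Of 30 tested proteases and inhibitors outside the MMP and TIMP families, 6 rose and 3 fell, where 7.6% and 5.71% of all tested genes did. In this list 3 rose without WT A, WT B or knockout C. Adam12 measured 1.17, 1.72 and 1.20 CPM in WT against 0, 0.0874 and 0.202 in the knockout, at least 4.56-fold lower (edgeR adjusted p = 0.0019). Adam12 was tested only because WT libraries held enough counts. Its direction therefore follows from the filter, and the count of lower genes gains nothing from it. Htra1, a serine protease, rose by 1.21 (edgeR adjusted p = 0.00145), and the lysosomal protease gene Ctsb, on chromosome 14, by 1.13 (edgeR adjusted p = 3.96e-05). The Ctsb value given here is not adjusted for the chromosome 14 median, which was 0.54 to 0.55 in the knockout libraries. With the chromosome 1 and 14 medians removed, the protease list again had 6 higher and 3 lower calls. Bsg, a cell-surface inducer of MMPs and the highest of the list per length, had a log2 difference of 0.41 (edgeR adjusted p = 0.052). Of 14 TGF-beta pathway genes, 3 rose and 1 fell, where 7.6% and 5.71% of all tested genes did. The receptor gene Tgfbr2 and the co-receptor genes Tgfbr3 and Eng, the last named after its values were seen, rose by 1.39, 1.0 and 0.99 on the log2 scale (edgeR adjusted p = 0.00509, 0.00884 and 0.00105). Tgfb2, a ligand gene on chromosome 1, measured 4.41, 2.22 and 1.90 CPM in WT against 0.221, 0.175 and 1.01 in the knockout (edgeR adjusted p = 0.00697), and 0 genes of this list were called lower without both libraries A. Tgfb2 was tested only because WT libraries held enough counts, as only knockout C reached the filter's cutoff of 0.495 CPM. Its direction therefore follows from the filter, and the count of lower genes gains nothing from it. The Tgfb2 values given here are not adjusted for the chromosome 1 median of -0.33 to -0.29 in the knockout libraries. With the chromosome 1 and 14 medians removed, this list again had 3 higher and 1 lower calls. Skil, the highest of the list per length, had a log2 difference of -0.08 (edgeR adjusted p = 0.644).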
